A study of Mus musculus with 6 samples.

Results

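The miR-125 family (miR-125a and miR-125b) and the miR-99/100 family (miR-99a, miR-99b and miR-100) were examined in the prefrontal cortex of BTBR and C57BL/6J mice. Every assay whose miRNA name, without case, species prefix, arm mark and copy number, was one of these 5 names was taken, whatever its pool, which gave 11 of the 750 miRNA assays on the panel. The families were chosen by name with the strain differences of these same assays already known, that is, the raw and normalized thresholds of the BTBR to C57BL/6J contrast entered the choice. Their strain differences are therefore given as a description, with no test of their own. Of the 11 assays, 7 were in pool A and 4 in pool B (the letter ends the assay's identifier), 5 read the guide or 5p strand and 6 the passenger or 3p strand. The panel had no member assay for the passenger strand of miR-100.

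Small RNA was measured in 3 BTBR and 3 C57BL/6J mice, 1 sample per mouse, by reverse transcription, pre-amplification and real-time PCR on the TaqMan OpenArray rodent panel. All 6 were male, 5 months old, kept in standard cages without drug treatment, and the whole prefrontal cortex was frozen after dissection. The BTBR samples carry the genotype label BTBR T+ Itpr3tf/J and the C57BL/6J samples the label wild type, while the strain background field reads C57BL/6J for all of them, although BTBR is an inbred strain of its own. BTBR mice show behaviours likened to autism, and the study asked how their miRNA profile compares with that of C57BL/6J controls. The readout is the cycle threshold, the number of PCR cycles an assay needs for its signal to reach a preset line. A later threshold stands for less RNA, 1 cycle is taken as a 2-fold difference, and 40 was read as undetermined.

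These miRNAs are among the oldest known in animals. miR-125 is the mammalian relative of lin-4, which times larval development in Caenorhabditis elegans, and in Drosophila miR-100, let-7 and miR-125 are made from a single transcript, an arrangement kept in the mammalian clusters of miR-99 or miR-100, let-7 and miR-125. miR-125 and let-7 restrain Lin28a and Trim71, which hold progenitor cells in an early state, and miR-99 and miR-100 are known repressors of Mtor and Igf1r, parts of the growth pathway. In neurons, miR-125b acts with the fragile X protein FMRP on Grin2a, an NMDA receptor subunit, and miR-125a with the same protein on Dlg4, the postsynaptic scaffold PSD-95.

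The mature mouse sequences of the guide strands are shown because the seed (bases 2 to 8, in capitals) divides the members into their families. All sequences are from RefSeq on GRCm38.p6, written 5′ to 3′.
mmu-miR-99a-5p: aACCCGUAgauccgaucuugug
mmu-miR-99b-5p: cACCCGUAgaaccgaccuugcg
mmu-miR-100-5p: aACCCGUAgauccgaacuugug
mmu-miR-125a-5p: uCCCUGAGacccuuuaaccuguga
mmu-miR-125b-5p: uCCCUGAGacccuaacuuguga
The seed ACCCGUA was held by 3 mature miRNAs of the RefSeq table, all of them members, and CCCUGAG by 5. Counted from the 5′ end, miR-99a and miR-100 differ by the single substitution U16A (the base of miR-99a first), while miR-99a and miR-99b differ by A1C, U11A, U16C and U21C. miR-125a and miR-125b share their first 13 bases and differ in length, with 24 and 22 bases. The probe and primer sequences of the assays are not in the files used here, and whether the assays of miR-99a and miR-100 read each other's target was not tested.

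The passenger strands and the let-7 members of the same clusters are shown because the arms and neighbours of miR-125a are compared below.
mmu-miR-99a-3p: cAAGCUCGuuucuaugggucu
mmu-miR-99b-3p: cAAGCUCGugucuguggguccg
mmu-miR-125a-3p: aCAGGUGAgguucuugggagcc
mmu-miR-125b-1-3p: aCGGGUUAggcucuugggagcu
mmu-miR-125b-2-3p: aCAAGUCAgguucuugggaccu
mmu-let-7c-5p: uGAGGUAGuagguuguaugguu
mmu-let-7e-5p: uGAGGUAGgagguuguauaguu
The passenger strands of the 2 miR-125b copies differ by G3A, G4A, U7C, C11U and G20C (the base of copy 1 first), so that their seeds differ too. All 6 hairpin loci of the families were found in RefSeq, in 3 clusters. On chromosome 9, Mir100, Mirlet7a-2 and Mir125b-1 lie in that order within the long non-coding RNA gene Mir100hg, with miR-100-5p at chr9:41531437-41531458 and miR-125b-5p at chr9:41581940-41581961. The chromosome 16 cluster is Mir99a, Mirlet7c-1 and Mir125b-2, overlapped by no other RefSeq gene, with miR-99a-5p at chr16:77598940-77598961 and miR-125b-5p again at chr16:77646279-77646300. Mir99b, Mirlet7e and Mir125a lie on chromosome 17 within the protein-coding gene Spaca6, with miR-99b-5p at chr17:17830194-17830215, let-7e-5p at chr17:17830366-17830387, miR-125a-5p at chr17:17830817-17830840 and miR-125a-3p at chr17:17830855-17830876. All of these are on the + strand, and the guide of miR-125b is the same from both of its loci.

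The number of assays detected per sample was 347 to 404 of 750 in BTBR and 289 to 305 in C57BL/6J, and the 16 spots of each endogenous control were detected 15 or 16 times in BTBR samples and 10 to 15 times in C57BL/6J samples. Over the 189 assays with a normalized value in all samples, the Pearson r of BTBR replicate 3 was 0.938 and 0.918 with BTBR replicates 1 and 2 and higher, 0.945 to 0.966, with the C57BL/6J samples, so values that rest on it are given with and without it. Markers of neurons were detected in all samples by 6 of 8 assays and those of oligodendrocytes by 4 of 6. The labels and files used here do not tie samples to arrays, so array and strain may not be separable. In dissected cortex, fewer cells that make a miRNA and less of it per cell cannot be told apart.

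The earliest member was the miR-125b guide. The assay hsa-miR-125b crossed at 14.03, 13.76 and 12.83 cycles in BTBR replicates 1 to 3, against 12.78, 12.66 and 12.54 cycles in C57BL/6J replicates 1 to 3. Every BTBR sample was later than every C57BL/6J sample, but BTBR replicate 3 lay only 0.049 cycles beyond the latest of them, and the means were 13.54 ± 0.63 in BTBR and 12.66 ± 0.118 in C57BL/6J (SD, n = 3 each). Among the miR-99/100 guides, hsa-miR-100 (000437) stood at 16.55, 16.58 and 16.27 cycles in BTBR, against 15.56, 15.5 and 15.27 in C57BL/6J. This was the widest separation of the 4 early guides, with 0.713 cycles between the nearest samples of the strains and means of 16.47 ± 0.168 in BTBR and 15.44 ± 0.155 in C57BL/6J.

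The sister assay hsa-miR-99a (000435), 1 base away from miR-100 in its target, gave 16.52, 16.78 and 16.4 cycles in BTBR, against 15.44, 15.43 and 15.93 in C57BL/6J. Its strains were 0.469 cycles apart at their nearest, with means of 16.56 ± 0.194 in BTBR and 15.60 ± 0.286 in C57BL/6J. For hsa-miR-99b (000436), the member on chromosome 17, thresholds were 16.68, 16.82 and 16.72 cycles in BTBR, against 16.24, 16.31 and 15.74 in C57BL/6J. The nearest samples were 0.364 cycles apart and the means 16.74 ± 0.0714 in BTBR and 16.10 ± 0.314 in C57BL/6J. Raw thresholds of these 4 guides were thus later in every BTBR sample. Of 8 members detected in all samples, these 4 had non-overlapping strains with BTBR later and 0 had BTBR earlier. Over all 237 such assays the shares were 18.1% and 14.3%.

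**Figure D1:**
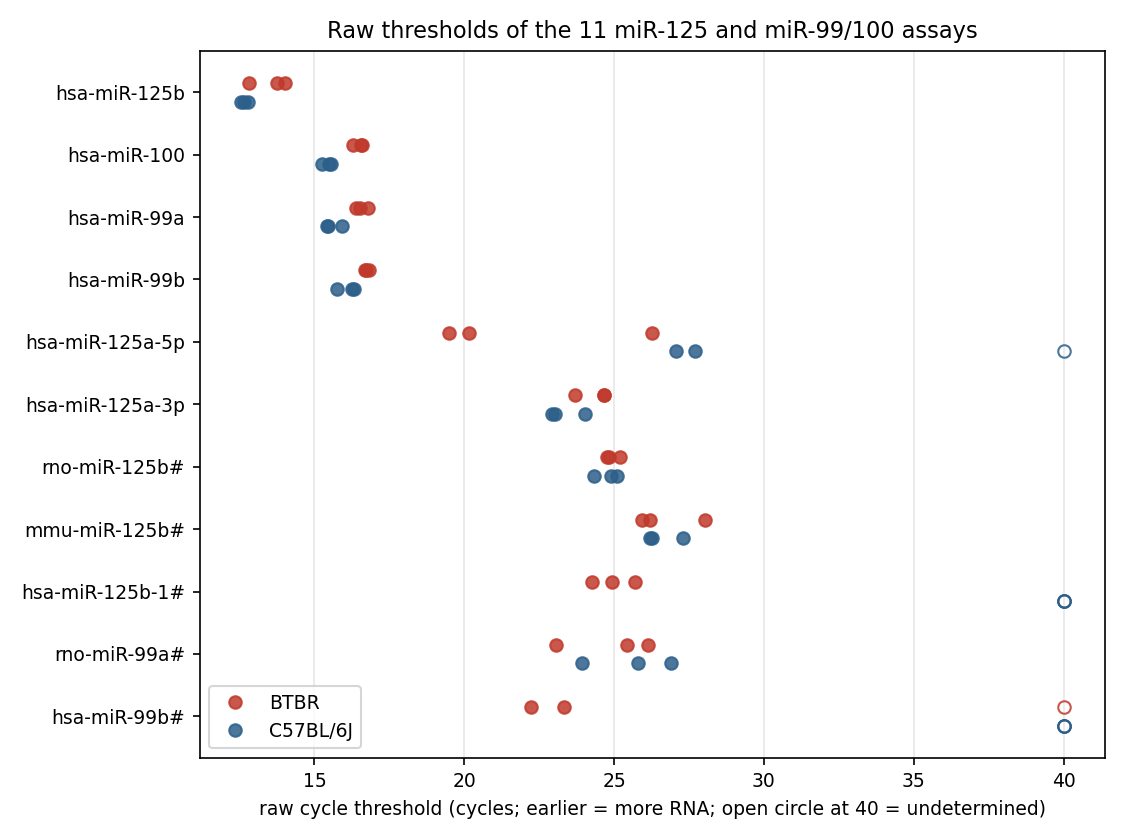
Raw cycle thresholds of the 11 member assays (horizontal axis, cycles, earlier meaning more RNA), 1 point per sample, BTBR in red above C57BL/6J in blue, with open circles at 40 for undetermined samples, which lie on top of each other. The 4 guides at the top sit between 12.54 and 16.82 cycles with BTBR later, hsa-miR-125a-5p has its BTBR samples in separate places, and hsa-miR-125b-1# was undetermined in all 3 C57BL/6J samples.

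By mean raw threshold over the samples that gave one, the order ran from miR-125b (13.10 cycles) through miR-100 (15.95), miR-99a (16.08) and miR-99b (16.42) to the passenger strands and miR-125a. The 99b passenger assay (22.77, from 2 samples), hsa-miR-125a-3p (23.83) and hsa-miR-125a-5p (24.14) came next, followed by rno-miR-125b# (24.85), hsa-miR-125b-1# (24.96, from 3 samples), rno-miR-99a# (25.21) and mmu-miR-125b# (26.66). Only miR-125b and miR-100, and miR-99b and its passenger strand, were neighbours in this order whose ranges did not overlap. Thresholds of different assays are not calibrated against each other, so the order is one of thresholds and not of molecules. The spread over samples was 0.579 cycles for miR-100, 0.572 for miR-99a, 0.405 for miR-99b and 0.63 for miR-125b (SD, n = 6), against 3.98 cycles for hsa-miR-125a-5p (n = 5).

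The size of the strain difference depended on the scale. In log2 units, BTBR minus C57BL/6J, miR-100 differed by -1.33 (standard error 0.31) on the authors' normalized values, by -1.20 (0.28) on raw thresholds after each sample was centred on the mean of its assays measured throughout (the global mean scale), and by -1.02 (0.25) on unscaled raw thresholds. The corresponding differences of miR-99a were -1.23 (0.43), -1.15 (0.40) and -0.96 (0.28), and those of miR-99b were -0.98 (0.32), -0.82 (0.28) and -0.64 (0.27). On these 3 scales the differences of the miR-99/100 guides were all negative. Centring on the endogenous control spots, which were 0.59 to 2.27 cycles earlier in BTBR for the 5 controls, gave -1.94 for miR-99b, -2.18 for miR-125b, -2.27 for miR-99a and -2.32 for miR-100, and 0 assays of the panel passed there in limma. On the authors' values centred on sample medians, miR-100 lay at -0.15, miR-99a at -0.05, miR-99b at 0.19 and miR-125b at 0.57. The value of miR-125b was smaller on the authors' normalized values, -0.61 (0.34), than after global mean centring, -1.06 (0.40), or unscaled, -0.88 (0.38).

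The panel as a whole moved between these scales. The median difference of the 231 assays fitted was -1.13 on the authors' values, -0.18 on the global mean scale and -0.01 on raw thresholds, and on the authors' values 189 of the 231 were negative. Over the 8 members in the fit the medians were -1.28, -0.94 and -0.76. Relative to the panel's median on the authors' scale, miR-99a lay at -0.10, miR-99b at 0.14, miR-100 at -0.20 and miR-125b at 0.52, so that none of these guides was more than 0.52 from the typical assay there.

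In the limma fit over all 231 assays on the authors' values (Benjamini-Hochberg adjusted p, threshold 0.05), 3 of 8 members passed as lower in BTBR, hsa-miR-100, hsa-miR-125a-3p and rno-miR-125b#, and 0 as higher. Over the whole panel 35.5% of assays passed as lower and 1.3% as higher. After global mean centring, none of these 8 assays passed in limma in either direction (0 lower, 0 higher), beside 0% of the panel lower and 0.433% higher, although 69 of the 231 assays had an unadjusted p under 0.05 there and 113 on the authors' values. The count on the authors' values was lower in most fits with 1 mouse fewer, although the differences kept their sign. It was 0 of the members without BTBR replicate 1, without BTBR replicate 2, without C57BL/6J replicate 2 and without C57BL/6J replicate 3 (for the panel, 0 of 212, 8 of 213, 3 of 212 and 0 of 221 passed in those fits, lower and higher together). The fits without C57BL/6J replicate 2 or 3 held 7 members, the others 8. Without C57BL/6J replicate 1, 2 of 8 members were lower, beside 64 lower and 0 higher of 220 panel assays. Leaving out BTBR replicate 3 gave 3 lower and 1 higher of 8, beside 88 lower and 13 higher of 212 panel assays. The same omission on the global mean scale gave 2 members lower and 1 higher of 8, with 22 lower and 24 higher of 212 assays. Over the 6 fits that each left out a mouse, the difference ran from -1.45 to -1.11 for miR-100, from -3.35 to -2.24 for hsa-miR-125a-3p and from -2.37 to -1.65 for rno-miR-125b#.

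**Figure D2:**
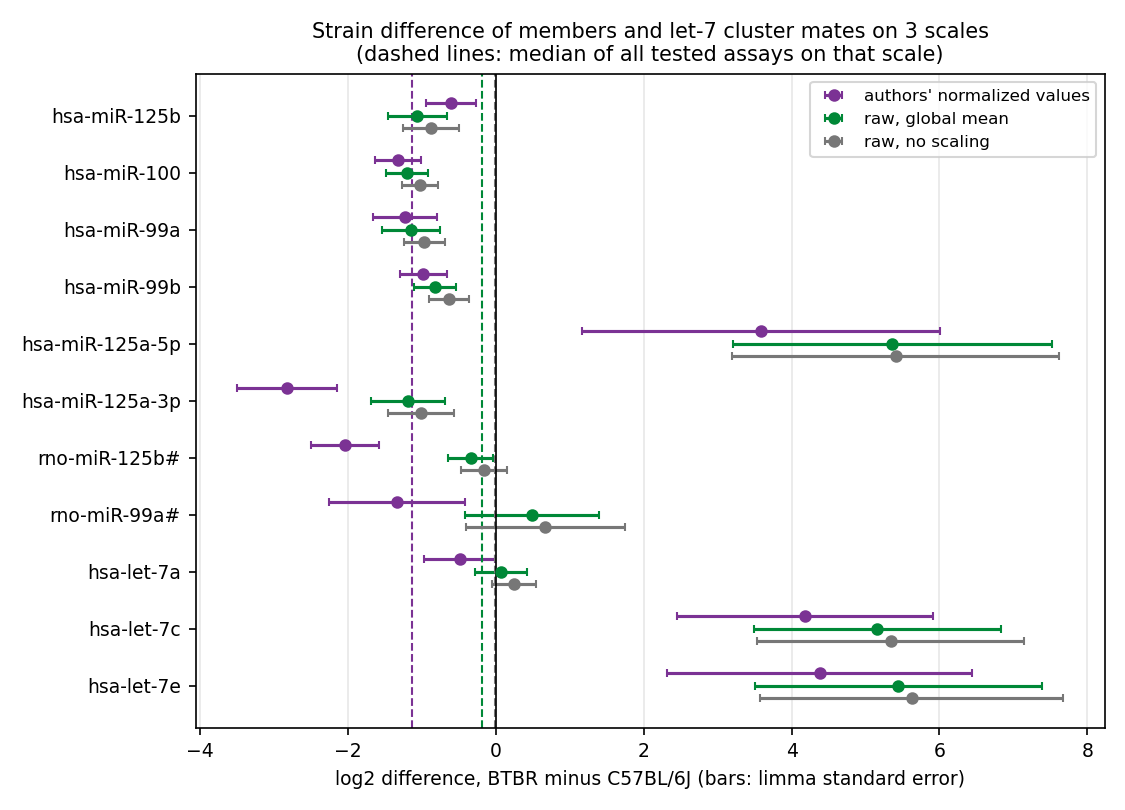
Strain difference in log2 units, BTBR minus C57BL/6J (horizontal axis), of the 8 fitted members and 3 let-7 cluster mates on the authors' normalized values (purple), the global mean scale (green) and unscaled raw thresholds (grey), with bars for limma standard errors. Dashed lines mark the medians of all 231 assays, -1.13, -0.18 and -0.01. The early guides lie within 0.52 of the purple line on the authors' scale and left of the other medians, and hsa-miR-125a-5p, let-7c and let-7e lie to the right with wide bars.

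Because the members with early thresholds were set against a panel that moved with threshold, they were also placed among assays as early as themselves. Between mean raw thresholds of 13.10 and 16.42 cycles the panel held 23 assays detected in all samples, the 4 guides included. Their median raw difference was -0.42 (quartiles -0.86 and -0.12), 18 of them were negative and 10 had every BTBR sample later. Counted from the most negative, miR-100 was at place 3, miR-99a at 4, miR-125b at 6 and miR-99b at 10, and the most negative was mmu-miR-434-3p at -1.25. Later assays of the panel had other medians. The raw median was -0.30 for the 44 assays below 18 cycles, -0.12 for the 64 assays from 18 to 22, 0.27 for the 88 from 22 to 26 and 0.74 for the 41 above 26. Centring on the 23 early assays, an alternative added after the data were seen, gave -0.59 for miR-99a, -0.26 for miR-99b, -0.64 for miR-100 and -0.50 for miR-125b. The 4 guides set this range and are part of the mean subtracted, so some of their own difference was removed with it.

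**Figure D3:**
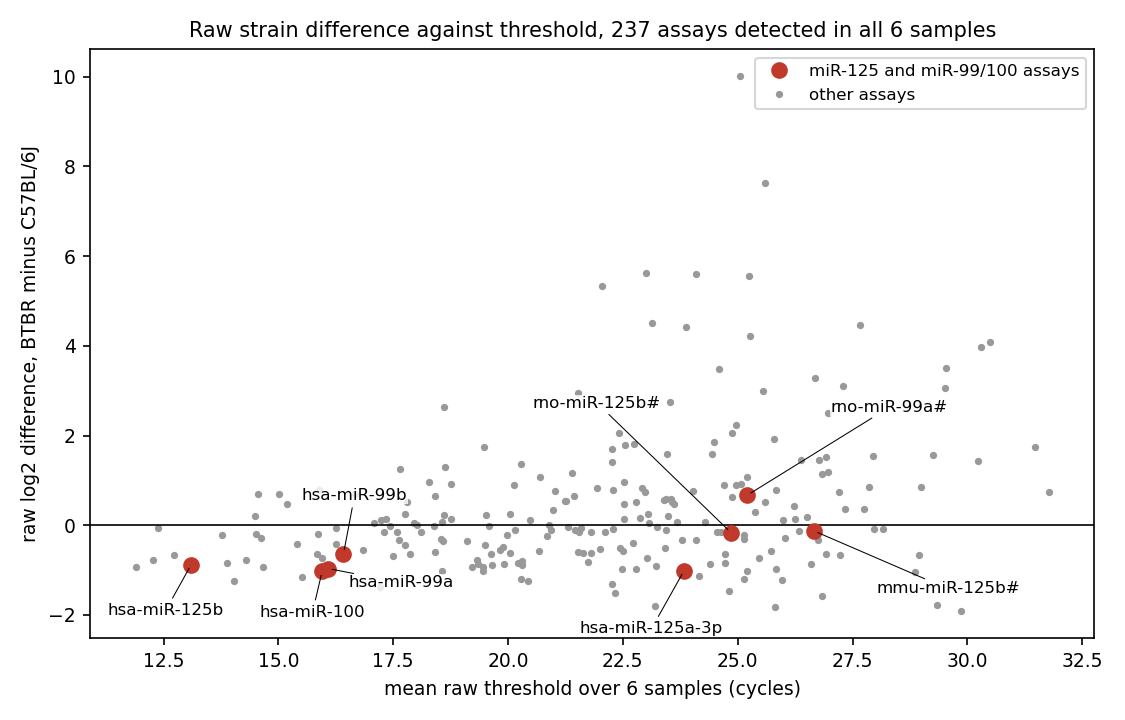
Raw log2 difference, BTBR minus C57BL/6J (vertical axis), against mean raw threshold over the 6 samples (horizontal axis, cycles) for the 237 assays detected throughout, members in red with their names and other assays in grey. The 4 early guides lie between -1.02 and -0.64, on the lower side of the 23 assays of their own range, and the later members lie between -1.01 and 0.67.

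The guide strand of miR-125a varied most between samples among the 11 assays. The assay hsa-miR-125a-5p (002198) crossed at 20.15 and 19.50 cycles in BTBR replicates 1 and 2 and at 26.27 in BTBR replicate 3, against 27.06 and 27.71 in C57BL/6J replicates 2 and 3, and it was undetermined in C57BL/6J replicate 1. BTBR replicate 3 thus stood far from the other BTBR samples and close to C57BL/6J replicate 2. The normalized values had the same pattern, with 20.10, 20.54 and 27.42 cycles in BTBR and 26.30 and 26.24 in C57BL/6J, where BTBR replicate 3 was the latest of those measured. The difference was 3.58 (standard error 2.42) on the authors' normalized values, 5.36 (2.16) after global mean centring and 5.41 (2.21) on raw thresholds, each from 3 BTBR and 2 C57BL/6J samples and none past the threshold in the full fit. Single mice moved this value in both directions. On the authors' values, with 2 samples left in each strain, it was 2.29 (2.47) without BTBR replicate 1 and 2.51 (2.67) without BTBR replicate 2. Neither was past the threshold. Without BTBR replicate 3, the BTBR sample close to C57BL/6J, it was 5.95 (0.38) and passed in limma, again from 2 samples in each strain. Without C57BL/6J replicate 2 or 3 it could not be fitted.

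The other arm of the same hairpin lay the other way. The assay hsa-miR-125a-3p (002199) crossed at 24.67, 24.65 and 23.69 cycles in BTBR, against 22.93, 24.02 and 23.03 in C57BL/6J, and the strains overlapped because BTBR replicate 3 was earlier than C57BL/6J replicate 2. Its normalized values, 25.30, 26.58 and 24.37 in BTBR and 22.15, 23.44 and 22.19 in C57BL/6J, did not overlap. That difference was -2.82 (standard error 0.68) and passed on the authors' values, but it was -1.19 (0.50) on the global mean scale and -1.01 (0.45) on raw thresholds, where it did not.

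Within a sample, a difference of 2 thresholds does not depend on how samples are scaled by a constant. The 5p threshold minus the 3p threshold was -4.52, -5.15 and 2.58 cycles in BTBR replicates 1 to 3, against 3.04 and 4.68 in C57BL/6J replicates 2 and 3. The arms therefore changed order between BTBR replicates 1 and 2 and the other samples with both values, and in the raw table BTBR replicate 3 remained below both C57BL/6J samples. As means, 5p minus 3p was -2.36 ± 4.29 cycles in BTBR (SD, n = 3) and 3.86 ± 1.16 in C57BL/6J (SD, n = 2), a difference of -6.22 cycles in the raw table and -6.18 in the normalized one. The raw difference was -5.14 cycles without BTBR replicate 1, -4.83 without BTBR replicate 2 and -8.69 without BTBR replicate 3.

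The neighbours of miR-125a on chromosome 17 were not of one kind. The assay hsa-let-7e (002406), between miR-99b and miR-125a in the cluster, crossed at 18.52, 17.52 and 24.51 cycles in BTBR, against 27.85, 25.74 and 23.83 in C57BL/6J. As for miR-125a-5p, BTBR replicates 1 and 2 were early and BTBR replicate 3 was late, here within the range of the C57BL/6J samples. Against miR-99b in the same sample, let-7e was later by 1.84, 0.706 and 7.79 cycles in BTBR and by 11.61, 9.42 and 8.09 in C57BL/6J, and miR-125a-5p by 3.48, 2.69 and 9.56 in BTBR and by 10.75 and 11.97 in C57BL/6J replicates 2 and 3. Set against each other, miR-125a-5p and let-7e kept a nearly fixed distance in BTBR in the raw table. miR-125a-5p was later by 1.64, 1.98 and 1.76 cycles there, against 1.33 and 3.88 in C57BL/6J replicates 2 and 3, and the strains overlapped. In the normalized table it was later by 1.54, 2.55 and 2.42 cycles in BTBR, less evenly, against 1.55 and 3.09 in those C57BL/6J samples. The 3p arm of miR-125a kept its distance from miR-99b in both strains in the raw table, with 7.60 ± 0.55 cycles in BTBR and 7.23 ± 0.513 in C57BL/6J (SD, n = 3 each). In the normalized table that distance was 8.35 ± 0.976 in BTBR and 6.51 ± 0.738 in C57BL/6J, and the strains no longer overlapped.

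**Figure D4:**
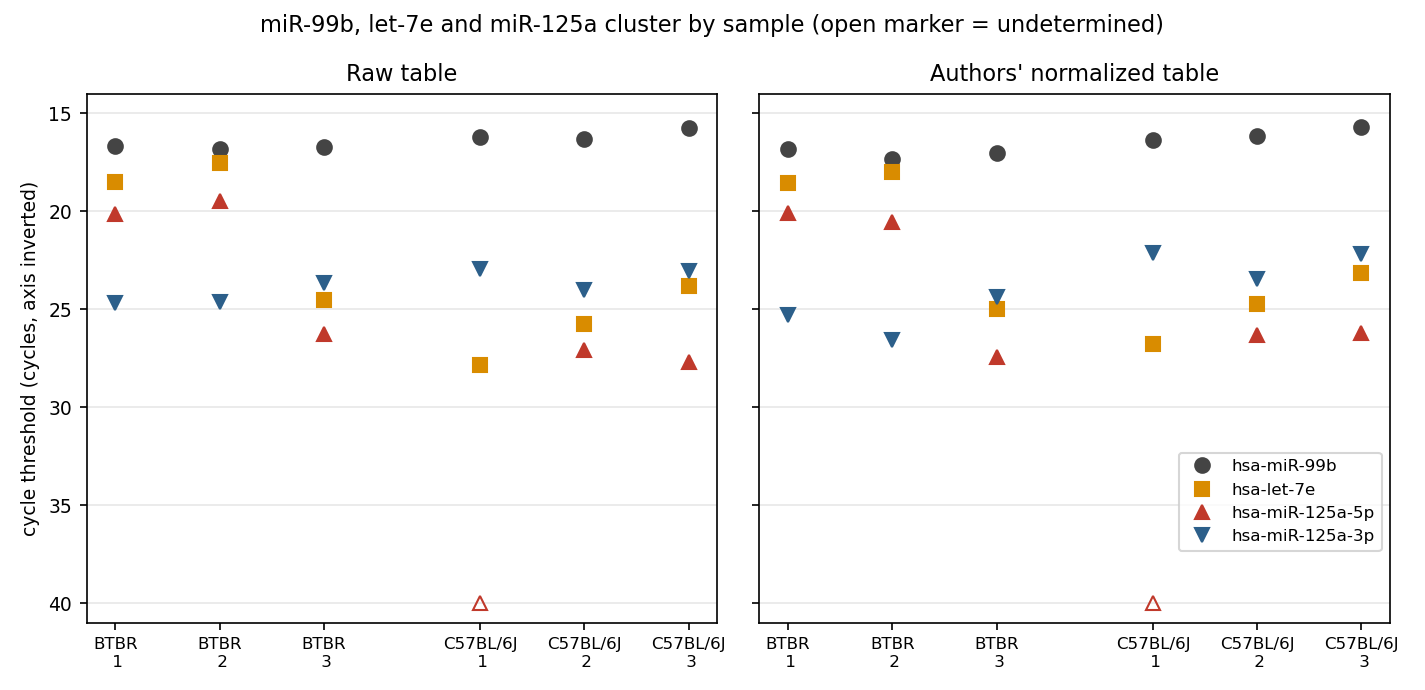
Cycle thresholds (vertical axis, inverted so that more RNA is higher) of the 4 assays of the chromosome 17 cluster in each sample, BTBR left of C57BL/6J, in the raw table and in the authors' normalized table, with an open marker at 40 for an undetermined sample. hsa-let-7e and hsa-miR-125a-5p stand above hsa-miR-125a-3p in BTBR replicates 1 and 2 and below it in the other samples, while hsa-miR-99b stays between 15.70 and 17.32 cycles throughout.

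This pattern was looked for over the panel after the values of miR-125a-5p had been seen. An assay was counted when BTBR replicates 1 and 2 were each at least 4 cycles earlier than all of the other 4 samples, with 40 taken as a value. The count was 48 of 750 assays (6.4%), 33 of which were undetermined in all of the other samples, and the same pattern in the other direction was found in 3. It held 10.9% of pool A (41 assays) and 1.88% of pool B (7 assays), and the assays of miR-125a-5p and let-7e are in pool A. Of the 11 members it held 1, and of 14 related assays 2, let-7e and hsa-miR-10a. Among the others were hsa-miR-24, at 17.20, 16.06 and 26.68 cycles in BTBR and undetermined, 28.08 and 27.15 in C57BL/6J, and hsa-miR-9, at 16.76 and 13.90 cycles in BTBR replicates 1 and 2 and undetermined elsewhere. hsa-miR-9 was the only one of the 8 neuronal marker assays with the pattern. Among markers of other cells, 1 of the 2 endothelial assays had it, hsa-miR-126#, at 20.59 and 22.78 cycles in BTBR replicates 1 and 2. The other, hsa-miR-126 (002228), did not, at 16.56, 16.47 and 18.06 cycles in BTBR, against 17.94, 19.07 and 17.82 in C57BL/6J. The other strand of miR-9, hsa-miR-9#, lay between 13.49 and 14.09 cycles in all samples. The neuronal hsa-miR-124# was undetermined in all BTBR samples and detected in all C57BL/6J samples. mmu-miR-124a went the other way, earlier in every BTBR sample, at 20.78, 19.79 and 23.29 cycles, against 31.40, 24.83 and 24.44 in C57BL/6J. The part of pool or of these samples in the value of miR-125a-5p was not tested.

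On chromosome 16, let-7c lay earlier in BTBR and its neighbour miR-99a later. The assay hsa-let-7c (000379) crossed at 18.70, 17.69 and 21.75 cycles in BTBR, against 28.30, 23.00 and 22.86 in C57BL/6J, with every BTBR sample earlier and BTBR replicate 3 nearest to C57BL/6J. It followed miR-99a by 2.18, 0.914 and 5.35 cycles in BTBR and by 12.86, 7.57 and 6.93 in C57BL/6J, without overlap, and the strain difference of that distance was -6.30 cycles. It ran from -7.57 without BTBR replicate 3 to -4.43 without C57BL/6J replicate 1, whose let-7c reading was the latest. The let-7c assay can also read let-7c made from a second locus outside this cluster.

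On chromosome 9, the thresholds of let-7a and miR-100 lay closer together in BTBR than in C57BL/6J, with little spread. The assay hsa-let-7a (000377), which is made from another locus as well, crossed at 17.72, 17.95 and 17.21 cycles in BTBR, against 18.03, 17.84 and 17.74 in C57BL/6J, so the strains overlapped. Its distance behind miR-100 was 1.17, 1.38 and 0.938 cycles in BTBR, against 2.47, 2.34 and 2.48 in C57BL/6J. The means of 1.16 ± 0.221 in BTBR and 2.43 ± 0.0774 in C57BL/6J (SD, n = 3 each) differed by -1.27 cycles in the raw table and by -0.84 in the normalized one, with no overlap in either table. The raw difference was -1.16 without BTBR replicate 3.

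Distances between the early guides were mostly alike in the strains. miR-125b minus miR-99a was -3.03 ± 0.542 cycles in BTBR and -2.94 ± 0.391 in C57BL/6J, and miR-125b minus miR-100 was -2.93 ± 0.472 in BTBR and -2.78 ± 0.061 in C57BL/6J (SD, n = 3 each, raw table). These strain differences, -0.08 and -0.14 cycles, were smaller in size than the SD pooled over both strains (0.472 and 0.336). So were those of miR-99a minus miR-100, -0.06 (pooled SD 0.322), and of miR-99a minus miR-99b, 0.33 (0.435). The SD of a single strain could be smaller, 0.061 in C57BL/6J for miR-125b minus miR-100 and 0.141 in BTBR for miR-99a minus miR-99b. The pair whose difference exceeded its pooled SD (0.167) in the raw table was miR-99b minus miR-100, with 0.128, 0.241 and 0.446 cycles in BTBR, against 0.685, 0.813 and 0.472 in C57BL/6J. Those strains did not overlap and differed by -0.39 cycles, while in the normalized table they overlapped (-0.34). For correlations, raw thresholds of each sample were centred on the mean of the 237 assays detected in all samples, not the 189 of the global mean scale. On this centring the 6 pairs among miR-99a, miR-99b, miR-100 and miR-125b had Pearson r of 0.884 to 0.978 over the 6 samples. Such values share the strain split and the scaling, so they describe these samples and carry no p.

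**Figure D5:**
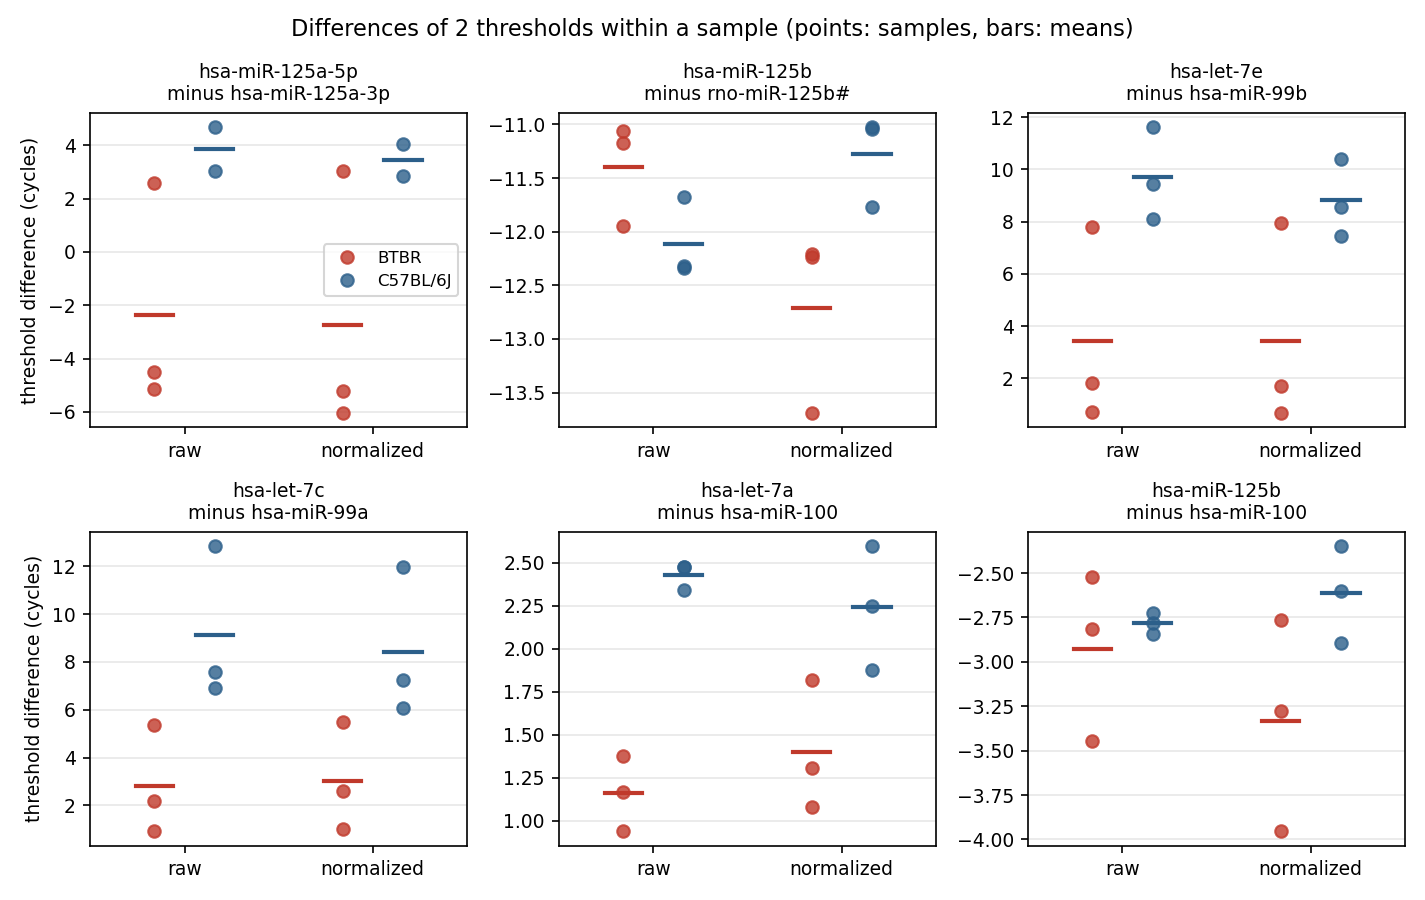
Difference of 2 thresholds within each sample (vertical axis, cycles, with its own range in every panel) for 6 pairs of arms or cluster mates, in the raw and the normalized table, with points for samples and bars for means, BTBR in red left of C57BL/6J in blue. hsa-let-7a minus hsa-miR-100 separates the strains in both tables. The mean of hsa-miR-125b minus rno-miR-125b# is higher in BTBR in the raw table (0.72 cycles, strains overlapping) and lower in the normalized one (-1.43 cycles, no overlap).

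The passenger strands of miR-125b were read by 3 assays, and which copy the pair without a number read is not stated in the labels or files used here. The assay rno-miR-125b# (002074) crossed at 25.20, 24.82 and 24.78 cycles in BTBR, against 25.10, 24.33 and 24.88 in C57BL/6J, with overlapping strains and means of 24.93 ± 0.235 in BTBR and 24.77 ± 0.396 in C57BL/6J. Its normalized values were 25.88, 26.79 and 25.33 in BTBR, against 24.14, 23.58 and 24.17 in C57BL/6J, and no longer overlapped. The log2 difference was -2.04 (standard error 0.46), past the threshold, on the authors' values, but -0.34 (0.31) on the global mean scale and -0.16 (0.31) on raw thresholds. The guide of miR-125b minus this strand was -11.39 ± 0.482 cycles in BTBR and -12.11 ± 0.377 in C57BL/6J in the raw table (SD, n = 3 each), where the strains overlapped. It was -12.71 ± 0.847 in BTBR and -11.28 ± 0.428 in C57BL/6J in the normalized one, without overlap, so the sign of the mean strain difference turned with the table.

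The second such assay, mmu-miR-125b# (002508), had raw thresholds of 28.02, 25.93 and 26.21 cycles in BTBR, against 26.28, 26.21 and 27.30 in C57BL/6J. These overlapped, with means of 26.72 ± 1.14 in BTBR and 26.60 ± 0.609 in C57BL/6J, and the distance between rno-miR-125b# and this assay differed by 0.04 cycles between the strains. In the normalized table BTBR replicates 1 and 2 stand at 40 despite those readings, which left 27.37 in BTBR replicate 3 against 25.56 ± 0.459 in C57BL/6J (SD, n = 3) and kept the assay out of the fit. Its ratio of BTBR over C57BL/6J in the authors' deposited table, 0.000834, comes from means in which those cells count as 40.

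The assay named for the strand of the first copy gave readings in BTBR alone. The pair of assays above, which may read either copy, was detected in all samples of both strains. The assay hsa-miR-125b-1# (002378) crossed at 24.25, 25.68 and 24.94 cycles in BTBR and was undetermined in all C57BL/6J samples, while the miR-125b guide, which comes from both copies, had a raw log2 difference of -0.88. It was 1 of the 11 members detected in every BTBR and no C57BL/6J sample, against 3.73% of the panel, and 3 assays of the panel had the opposite pattern. Among the marker assays of other cell types, 1 of 3 for blood and 1 of 4 for mural cells had the pattern too, hsa-miR-486 with 16.66, 16.62 and 15.20 cycles in BTBR and 1 of the hsa-miR-143 assays (002249) with 21.68, 20.83 and 23.72. The other blood markers did not, since mmu-miR-451 was detected in all samples and HSA-MIR-144 in none. Nor did the other mural markers. The other hsa-miR-143 assay (000466) was detected in all samples, with a raw log2 difference of -0.98, and mmu-miR-145# in none. hsa-miR-145 lay the other way, undetermined in BTBR replicate 1 and at 16.50 and 15.27 cycles in replicates 2 and 3. In C57BL/6J it crossed at 14.01, 13.87 and 12.66 cycles. The part of those cells in the result was not tested. No fold follows from an undetermined assay, and the ratio of 13643 in the authors' deposited table comes from a C57BL/6J mean of 40.

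Among the passenger strands of the miR-99 family, rno-miR-99a# (002073) crossed at 25.45, 23.05 and 26.13 cycles in BTBR, against 26.92, 25.80 and 23.92 in C57BL/6J. The strains overlapped and the spread was wide, 24.87 ± 1.62 in BTBR and 25.54 ± 1.52 in C57BL/6J. Its log2 difference was -1.34 (standard error 0.92) on the authors' values and turned to 0.49 (0.91) on the global mean scale and 0.67 (1.08) on raw thresholds. Of the 8 members detected in all samples, this strand alone had a negative correlation with each of the 4 early guides. Pearson r was -0.68 with miR-99a and -0.46 with miR-99b (raw thresholds centred on the 237 assays, n = 6, no p). The assay hsa-miR-99b# (002196) was detected in BTBR replicates 2 and 3 alone, at 22.22 and 23.31 cycles, and is not listed in the normalized table.

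The authors' normalization moved early and late members by different amounts. For miR-99a, miR-99b, miR-100 and miR-125b the normalized threshold minus the raw one averaged 0.11, 0.34, 0.16 and -0.25 cycles in BTBR and -0.15, -0.01, -0.14 and 0.02 in C57BL/6J. For the later rno-miR-125b#, rno-miR-99a# and hsa-miR-125a-3p it averaged 1.07, 1.07 and 1.08 cycles in BTBR and -0.81, -0.94 and -0.73 in C57BL/6J. Of the 3 members that passed on the authors' values, 2 were in this later set, and the third was miR-100. In the authors' deposited table the ratios of BTBR to C57BL/6J were 0.427 for miR-99a, 0.506 for miR-99b, 0.399 for miR-100, 0.656 for miR-125b and 0.141 for hsa-miR-125a-3p. The same table gives 286 for hsa-miR-125a-5p, with mean thresholds of 22.68 in BTBR and 30.85 in C57BL/6J, the second of which includes a value of 40.

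The list of relatives held 14 assays: both arms of the let-7 cluster mates, miR-351, which shares the seed of miR-125, miR-670, whose 5p seed in RefSeq is UCCCUGA and so not that of miR-125, and miR-10a and miR-10b as relatives of miR-99/100. Of these, 4 could be fitted on the authors' values, and 1 passed as lower in BTBR and 0 as higher. That 1 was mmu-let-7a#, with a log2 difference of -1.61 (standard error 0.39) on the authors' values and -0.15 on raw thresholds, where it crossed at 22.73, 21.97 and 21.83 cycles in BTBR, against 21.91, 22.11 and 22.06 in C57BL/6J. The guides let-7c (4.18, standard error 1.73), let-7e (4.38, 2.06) and let-7a (-0.49, 0.48) did not pass. Undetermined in all samples were 6 relatives, mmu-miR-351, rno-miR-351, mmu-miR-670, mmu-miR-10b, mmu-miR-10b# and hsa-miR-10a#. The assay mmu-let-7c-1# crossed at 26.10, 26.76 and 28.60 cycles in BTBR, against 26.27, 27.53 and 28.71 in C57BL/6J, with overlapping strains, and its BTBR replicates 2 and 3 stand at 40 in the normalized table. Of the relatives detected in few samples, hsa-let-7e# gave 27.10 cycles in BTBR replicate 2 alone. hsa-miR-10a, at 24.37 and 24.80 cycles, was detected in BTBR replicates 1 and 2 alone, and hsa-miR-10b, at 24.59, in C57BL/6J replicate 1 alone.

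The assays outside the families whose levels followed a member most closely over the 6 samples were found by Pearson r. It was taken among the 237 assays detected throughout, with raw thresholds centred on their mean. For miR-100 these were mmu-miR-434-5p (r = 0.995), hsa-miR-30c (0.990) and mmu-miR-380-5p (0.985), and for miR-125b hsa-miR-543 (0.984), hsa-miR-30d (0.983) and hsa-miR-532-3p (0.983). miR-99a was nearest to hsa-miR-213 (0.983), hsa-miR-222 (0.972) and mmu-miR-669a (0.971), and miR-99b to hsa-miR-128a (0.974), mmu-miR-434-3p (0.973) and hsa-miR-27a (0.969). The 3p arm of miR-125a had mmu-miR-676 (0.997), mmu-miR-598 (0.976) and hsa-let-7i (0.975) nearest, and rno-miR-125b# had mmu-miR-345 (0.965), hsa-miR-214 (0.962) and hsa-miR-30a-5p (0.942). For mmu-miR-125b# the nearest were mmu-miR-339-3p (0.936), hsa-miR-135b (0.924) and hsa-miR-539 (0.917), and for rno-miR-99a# they were MMU-MIR-1937B (0.871), mmu-miR-187 (0.862) and hsa-miR-183# (0.805). Members were left out of this ranking, and no assay listed here for 1 of them was also listed for another.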

How the data were processed

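Cycle thresholds were taken from the deposited raw table (750 miRNA assays and the control spots) and the deposited normalized table. Per the labels' protocols, column-purified RNA of integrity number 9 was used, 100 ng per sample. The normalized table is quantile-normalized, per the file headers. Its values were rebuilt to within 3.33e-09 cycles: 40 replaced raw values under 10, quantiles were shared over the 340 assays that at least 3 samples then detected, with 40 as a value, and 40 replaced results above 29.19. The fold column deposited by the authors is a ratio of BTBR to C57BL/6J from mean thresholds that keep 40.

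For the strain fit, thresholds were multiplied by -1 and 40 was missing. Assays with at least 2 values per strain were fitted with lmFit and eBayes (limma 3.58.1, R 4.3.3), with Benjamini-Hochberg adjustment over 231 assays at 0.05. On simulated data, shifts of 1, 2 and 3 cycles passed in 16.4%, 56.8% and 76% of cases, and 4.54% of passing assays were false. An assay that did not pass is therefore not shown to be unchanged. Simulated assays were drawn independently, without shifts shared by a sample, so these shares may not hold for the data. Replicates are separate mice, 1 PCR per assay, so the number of mice limits precision. Replicate numbers were not used as pairs. The text names every member, every listed relative detected, and the 3 assays most like each member. The members and lists were chosen with earlier results of these data known. Assays outside that rule (miR-9, miR-24, miR-124#, miR-124a, miR-126, miR-126#, miR-143, miR-144, miR-145, miR-145#, miR-451, miR-486, miR-434-3p) were named after their values were seen. Alternatives covered scaling, late and undetermined values, the filter and each mouse left out.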

Additional observations from a re-analysis of the deposited data

How the results depend on the processing

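Over the alternatives run for the 8 fitted members, 97 values kept their direction and side of the threshold, 35 kept their direction but no longer passed, 1 came to pass and 8 changed sign. The panel's count of 85 passing assays became 1 on the global mean of the same cells, 0 on the global mean of all detected cells, 0 unscaled, 2 on the authors' values centred on sample medians, 0 with the global mean within each pool, 0 on control spots and 16 (0 lower, 16 higher) on the mean of early assays, the last added after the data were seen. With 40 kept as a value 96 passed (70 lower, 26 higher). The members' count of 3 lower became 0 under each of the 7 scalings just named, and it stayed at 3 with late readings kept, with 40 kept as a value, with assays measured in all samples only and with a looser filter. With 1 mouse left out the panel's count ranged from 0 to 101 and the members' from 0 to 3. The 8 changes of sign were those of hsa-miR-99b (0.19) and hsa-miR-125b (0.57) on sample medians, of rno-miR-99a# on the global mean (0.49), all detected cells (0.27), unscaled (0.67), within pools (0.42) and on early assays (1.05), and of rno-miR-125b# on early assays (0.22). Strain differences, BTBR minus C57BL/6J, were also taken of the distances within a sample. Those of hsa-miR-125b minus rno-miR-125b# (-1.43), hsa-miR-125b minus mmu-miR-125b# (-1.39), rno-miR-125b# minus mmu-miR-125b# (-0.44) and hsa-miR-99a minus rno-miR-99a# (-0.11) changed sign in the normalized table. That of hsa-miR-125a-5p minus hsa-let-7e did so without C57BL/6J replicate 3 (0.47). Some strain differences of distances, all close to 0 with every mouse, also changed sign with some mice left out. They were those of rno-miR-125b# minus mmu-miR-125b# and those among hsa-miR-125b, hsa-miR-99a and hsa-miR-100. The cause was not tested. With the replicate number as a block, 32 assays and 1 member passed as against 85 and 3. Deviations of samples of the same number correlated at r = 0.083, 0.421 and -0.0013, and those of different numbers at -0.377 to 0.256. With so few mice, whether samples of the same number shared a batch cannot be told from these values. Precision is limited by 3 mice per strain and 1 PCR per assay.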
